A study of Mus musculus with 54 samples.

Results

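Pdgfra, Cspg4, Olig1, Olig2, Sox10, Gpr17 and Nkx2-2 are the genes by which the early oligodendrocyte lineage is usually recognised, and their transcripts were followed through every genotype and age of a study of RNase H2 loss in the mouse cerebellum. The 7 genes were chosen by name, among 21048 gene names in the deposited tables, and all 7 passed the filter on low values at all 3 ages. Oligodendrocyte progenitors arise under the transcription factors Olig1 and Olig2, divide in answer to platelet-derived growth factor through the receptor encoded by Pdgfra, and carry the proteoglycan NG2, the product of Cspg4. When a progenitor commits, it loses Pdgfra and Cspg4 and passes through a stage with high Gpr17, which encodes a G protein-coupled receptor. Sox10 and Nkx2-2 encode transcription factors that drive differentiation towards myelin, and Sox10 stays on in mature oligodendrocytes. In the cerebellum most of these cells come from outside, settle in the white matter around birth and myelinate over the following weeks.

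RNA came from whole mouse cerebellum. Rnaseh2b encodes a subunit of RNase H2, the enzyme that removes ribonucleotides from DNA, the product of Atm is a protein kinase activated at broken DNA, and Trp53 encodes the tumour suppressor p53. At P5 there were 4 Rnaseh2b/Atm, 4 Rnaseh2b/p53, 3 Rnaseh2b, 3 Atm, 3 p53 and 3 control libraries. At P28 there were 5 each of Rnaseh2b/Atm, Rnaseh2b, Atm and control, and at 9 weeks 7 of Rnaseh2b and 7 of control. All mutant groups carry Nes-cre in their labels, a Cre driven by nestin regulatory sequence that acts in neural progenitors and so in the neurons, astrocytes and oligodendrocytes they form, while vessel, meningeal and microglial cells largely keep the gene. The labels of the controls give no Cre or allele. Libraries at P5 and 9 weeks were of total RNA and those at P28 of poly-A RNA, so levels are set side by side across ages but were never tested across them. The labels do not say that replicates were separate animals, so p-values measure the spread between these libraries. Groups of an age share libraries between comparisons.

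Rnaseh2b transcripts separated its mutants from the other groups at each age, with 1.82 to 2.30 against 3.31 to 4.61 log2 CPM (read counts scaled to the size of the library) at P5, 0.60 to 1.33 against 2.08 to 2.97 at P28, and 2.15 to 2.78 against 3.33 to 3.72 at 9 weeks. Trp53 was 1.30 to 2.23 log2 CPM in both p53 groups at P5 and 2.62 to 4.19 in the others. Atm did not separate the libraries labelled Atm from controls (4.60 to 4.97 against 4.79 to 4.94 log2 CPM at P28, 5.03 to 6.0 against 5.35 to 6.22 at P5), whereas P28 Rnaseh2b/Atm libraries had 3.97 to 4.10. P5 Rnaseh2b/Atm libraries had 5.28 to 5.70 and overlapped the P5 controls. For all groups with Atm in their label the Atm genotype therefore rests on the label, as P28 libraries labelled Atm alone showed no fall. Reads in genes ran from 24086855 to 89659472 at P28, and from 48155385 to 95071392 at P5 apart from 710983997 in Rnaseh2b/p53 replicate 3. The fewest reads behind a value of these 7 genes were 192 at P28 and 216 at P5, both for Nkx2-2, and depth at 9 weeks was not recoverable. At P5, replicate 1 of the libraries labelled Atm and control replicate 2 stood apart, with root mean square distances of 0.734 and 0.511 log2 from the median library against 0.226 to 0.440 in the other 18. A list of 7 choroid plexus genes summed to 16.7 CPM in that Atm library, 57.8 in Atm replicate 2 and 86.4 in control replicate 2, against 920 to 2198 in the others. At P28, 1 library of each group was low in GC-rich genes, and at 9 weeks the libraries form 2 sets by the codes in their labels, 11 to 16 and 50 to 58.

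The promoters of Pdgfra and Nkx2-2 are shown because these 2 genes moved furthest in opposite directions at P28. Olig1 and Olig2 proteins belong to the basic helix-loop-helix class, which binds E-boxes, and Sox10 to a class that binds short ACAAT motifs. Each sequence is the 300 bases from 250 before to 50 after the RefSeq gene start (build GRCm38.p6), read 5′ to 3′ on the gene's strand, with every E-box, written CANNTG, in capitals.
Pdgfra, chr5:75152001-75152300, plus strand: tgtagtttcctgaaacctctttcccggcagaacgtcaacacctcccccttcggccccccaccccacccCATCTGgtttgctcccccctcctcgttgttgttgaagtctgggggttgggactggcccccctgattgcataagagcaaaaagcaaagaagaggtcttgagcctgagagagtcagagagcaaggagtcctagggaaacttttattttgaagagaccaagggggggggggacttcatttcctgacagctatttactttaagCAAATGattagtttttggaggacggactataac
Nkx2-2, chr2:147186353-147186652, minus strand: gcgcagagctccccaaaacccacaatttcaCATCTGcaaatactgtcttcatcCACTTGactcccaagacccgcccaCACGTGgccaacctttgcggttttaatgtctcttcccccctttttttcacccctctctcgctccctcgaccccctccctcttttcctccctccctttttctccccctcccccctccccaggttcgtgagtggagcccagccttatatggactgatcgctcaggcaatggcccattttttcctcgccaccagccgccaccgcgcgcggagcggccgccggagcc
The Pdgfra window held 2 E-boxes and no ACAAT on either strand, and the Nkx2-2 window held 3 E-boxes and 1 ACAAT. The windows of Olig2 and Cspg4 held 0 E-boxes and 1 ACAAT each. Of all 32851 promoters in the table, 72.3% held at least 1 CANNTG, 17.6% held 3 or more, and 31.0% held ACAAT on either strand. GC content was 51% for Pdgfra and 59.7% for Nkx2-2, beside a median of 52.7% over the table.

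Levels between genes were compared in FPKM, which divides by gene length. In P5 controls Olig1 (31.3 ± 12.4 FPKM), Pdgfra (31.1 ± 1.15) and Gpr17 (30.3 ± 9.38) stood highest and within one another's spread. Olig2 (12.8 ± 4.03), Sox10 (8.88 ± 3.17), Cspg4 (4.81 ± 1.02) and Nkx2-2 (1.80 ± 0.444) followed (SD, n = 3). In P28 controls Olig1 was first at 29.7 ± 7.34 FPKM, followed by Gpr17 at 14.4 ± 1.22 and Sox10 at 13.8 ± 1.68, which lay within their spread. Olig2 had 7.82 ± 1.83, Pdgfra 3.90 ± 0.147, Nkx2-2 3.31 ± 0.919 and Cspg4 2.10 ± 0.130 FPKM (SD, n = 5), and Pdgfra and Nkx2-2 overlapped. In P28 Rnaseh2b/Atm cerebella Pdgfra averaged 7.34 FPKM and Nkx2-2 1.65 FPKM, so the gap between them was wider. In 9-week controls, on the authors' shifted FPKM scale, Olig1 had 13.2, Sox10 5.70, Pdgfra 4.92, Gpr17 3.18, Olig2 2.33, Nkx2-2 1.04 and Cspg4 0.931. Pdgfra was thus among the highest of the 7 at P5 and in the lower part of the order at P28, while Olig1 had the highest mean at P28 and 9 weeks. In 9-week controls Pdgfra stood behind Olig1 and Sox10 only, and P28 alone had poly-A libraries.

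**Figure D1:**
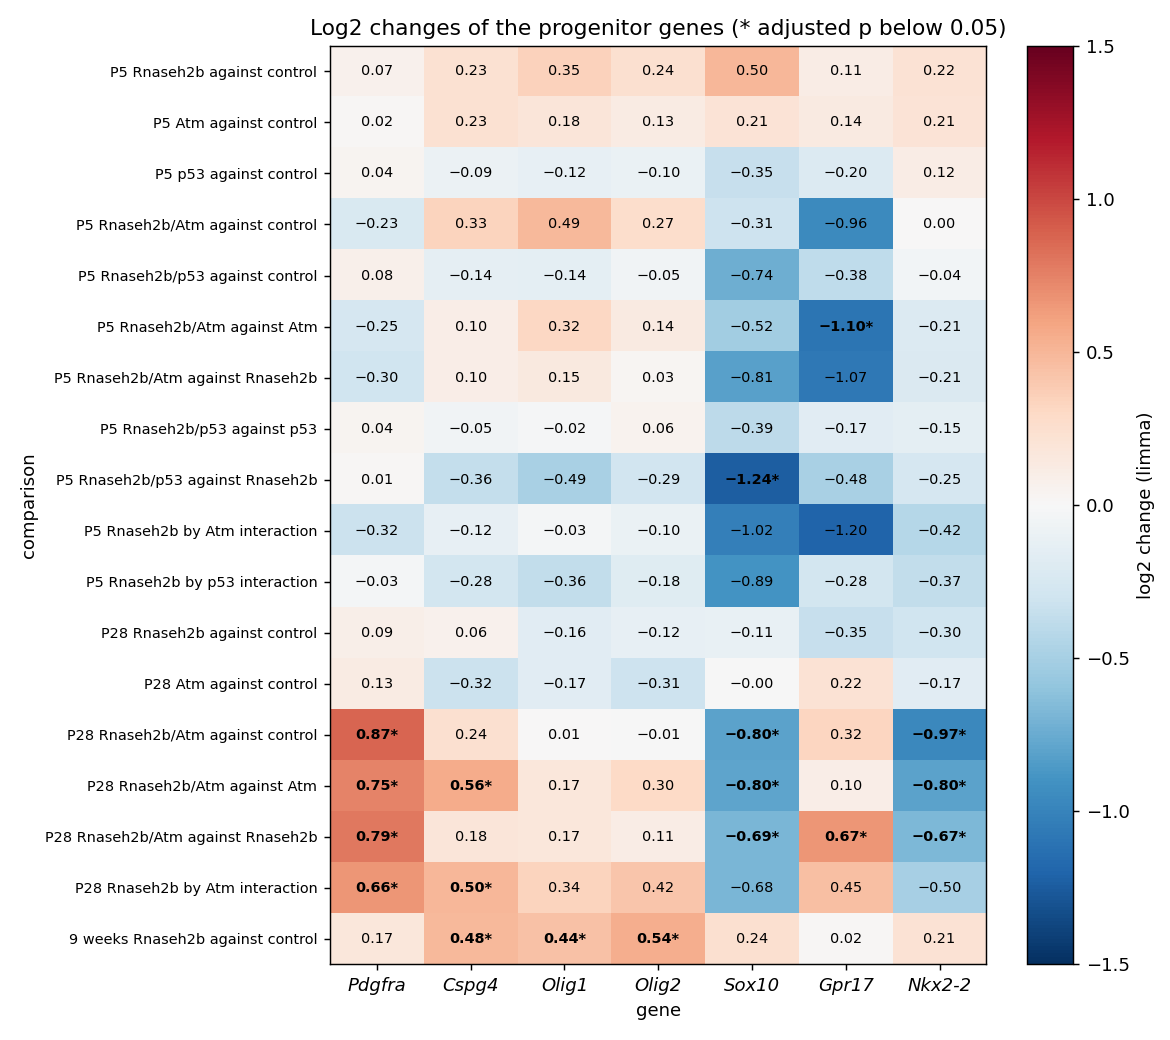
Log2 changes of the 7 genes (columns) in the 18 comparisons and interactions (rows), from the fit over all genes. The colour gives the change from blue (lower in the first-named group) to red (higher), and an asterisk marks an adjusted p below 0.05. Red Pdgfra cells and blue Sox10 and Nkx2-2 cells stand together in the P28 Rnaseh2b/Atm comparisons (0.87, −0.80 and −0.97 against control), and Cspg4, Olig1 and Olig2 are marked at 9 weeks.

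In the P28 Rnaseh2b/Atm cerebellum the growth factor receptor of progenitors was higher and the differentiation factors were lower. Against control, Pdgfra rose by 0.87 ± 0.08 on the log2 scale (1.83-fold, adjusted p = 3.57e-08), while Sox10 fell by 0.80 ± 0.23 (to 0.575-fold, adjusted p = 0.00528) and Nkx2-2 fell by 0.97 ± 0.24 (to 0.510-fold, adjusted p = 0.00171). All adjusted p-values are from limma with Benjamini-Hochberg adjustment over all genes tested, and ± after a change is its standard error. The other 4 genes were not called, at 0.24 ± 0.13 for Cspg4, 0.01 ± 0.31 for Olig1, −0.01 ± 0.21 for Olig2 and 0.32 ± 0.18 for Gpr17. That is 3 of 7 members called where 63.6% of all 16530 genes were called, a share below the background, so the count itself is no result about these genes. In bulk tissue, fewer cells of a type and less RNA per cell cannot be told apart.

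**Figure D2:**
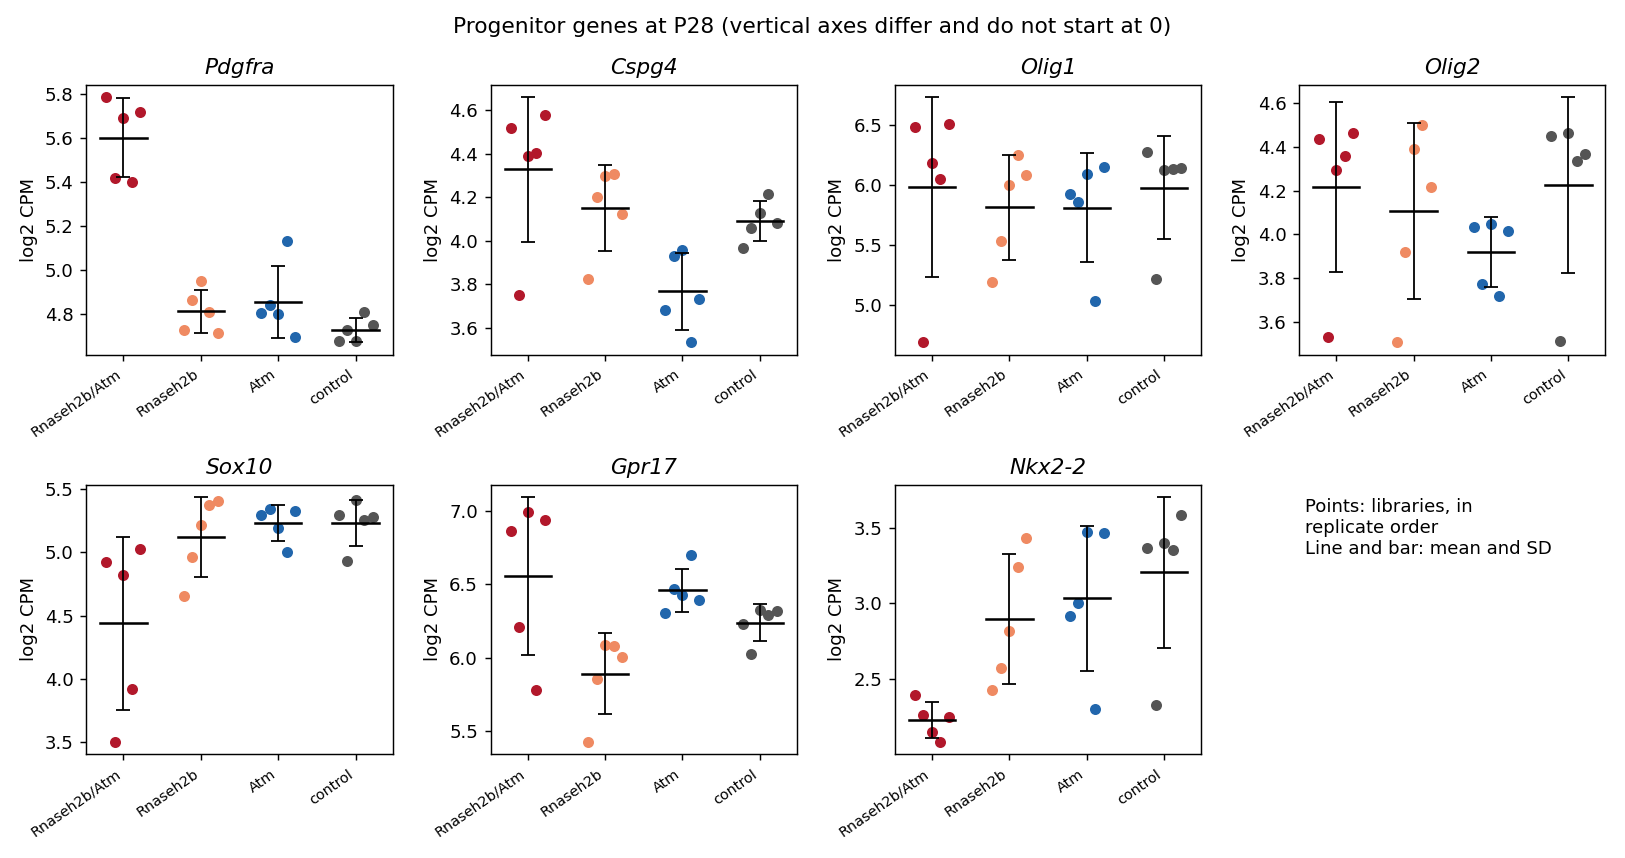
Level of each gene (log2 CPM) in the 5 libraries of each P28 genotype, with group means and SD. Rnaseh2b/Atm libraries lie at 5.40 to 5.79 for Pdgfra, above every control (4.68 to 4.81), and control replicate 2 sits far below its group for Olig1, Olig2 and Nkx2-2.

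Pdgfra had 5.79, 5.42, 5.69, 5.40 and 5.72 log2 CPM in the Rnaseh2b/Atm libraries. It had 4.73, 4.86, 4.95, 4.81 and 4.72 in Rnaseh2b, 4.81, 4.84, 4.80, 5.13 and 4.70 in libraries labelled Atm, and 4.68, 4.73, 4.68, 4.81 and 4.75 in controls. The lowest Rnaseh2b/Atm library was above the highest of every other group, and the other 3 groups overlapped. Groups that did not overlap at all were seen for 45.6% of genes in the Rnaseh2b/Atm comparison with control. Against the libraries labelled Atm, Pdgfra rose by 0.75 ± 0.08 (adjusted p = 2.53e-07), and against Rnaseh2b by 0.79 ± 0.08 (adjusted p = 3.13e-07). Its difference between Rnaseh2b/Atm and Atm exceeded that between Rnaseh2b and control by 0.66 ± 0.12 (interaction, adjusted p = 2.48e-04), where 37.7% of genes were called. Leaving out any 1 library kept each of these Pdgfra calls.

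Cspg4, the other gene lost on commitment, had 4.52, 3.75, 4.39, 4.40 and 4.58 log2 CPM in Rnaseh2b/Atm and 3.82, 4.20, 4.30, 4.31 and 4.12 in Rnaseh2b. It had 3.68, 3.93, 3.96, 3.53 and 3.73 in libraries labelled Atm and 3.97, 4.06, 4.13, 4.22 and 4.08 in controls. Apart from replicate 2, the Rnaseh2b/Atm libraries were above all controls, and all 5 libraries labelled Atm were below all controls. Cspg4 rose by 0.56 ± 0.13 in Rnaseh2b/Atm against Atm (adjusted p = 9.90e-04). In that comparison 4 of 7 members were called, where 61% of genes were called. The interaction for Cspg4 was 0.50 ± 0.18 (adjusted p = 0.0392), and it kept its call when 8 of 20 libraries were left out in turn and lost it with each of the other 12, at 0.42 to 0.50.

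Sox10 had 4.92, 3.50, 4.82, 3.92 and 5.03 log2 CPM in Rnaseh2b/Atm and 4.66, 4.96, 5.21, 5.38 and 5.41 in Rnaseh2b. It had 5.30, 5.34, 5.20, 5.0 and 5.33 in libraries labelled Atm and 5.30, 4.93, 5.41, 5.25 and 5.28 in controls. Replicates 2 and 4 of Rnaseh2b/Atm were far below the rest, and the other 3 were below 4 of the 5 controls. Sox10 fell by 0.80 ± 0.23 against Atm (adjusted p = 0.00554) and by 0.69 ± 0.23 against Rnaseh2b (adjusted p = 0.0182). The call against Rnaseh2b was lost without Rnaseh2b/Atm replicate 2 (−0.45, adjusted p = 0.0532) or replicate 4 (−0.56, adjusted p = 0.0579), in a fit of only both groups (−0.69, adjusted p = 0.0704) and with array weights (−0.31, adjusted p = 0.0952).

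Nkx2-2 had 2.40, 2.26, 2.16, 2.09 and 2.25 log2 CPM in Rnaseh2b/Atm and 2.43, 2.58, 2.82, 3.24 and 3.43 in Rnaseh2b. It had 2.92, 3.0, 3.47, 2.31 and 3.47 in libraries labelled Atm and 3.36, 2.33, 3.39, 3.35 and 3.58 in controls. The Rnaseh2b/Atm libraries were close together and below all Rnaseh2b libraries, where 35.4% of all genes did not overlap, and control replicate 2 and Atm replicate 4 lay within their range. Nkx2-2 fell by 0.80 ± 0.24 against Atm (adjusted p = 0.00731) and by 0.67 ± 0.24 against Rnaseh2b (adjusted p = 0.0271). The call against Rnaseh2b was lost without Rnaseh2b replicate 4 (−0.58, adjusted p = 0.0696) or 5 (−0.54, 0.0845), or without Rnaseh2b/Atm replicate 3 (−0.65, 0.0513) or 4 (−0.63, 0.0547), and in the fit on recovered reads.

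Gpr17 had 6.86, 6.21, 6.99, 5.78 and 6.94 log2 CPM in Rnaseh2b/Atm and 5.43, 5.86, 6.08, 6.08 and 6.01 in Rnaseh2b. It had 6.30, 6.47, 6.43, 6.70 and 6.39 in libraries labelled Atm and 6.23, 6.03, 6.33, 6.29 and 6.32 in controls. Rnaseh2b/Atm replicates 1, 3 and 5 were above every other library, and replicate 4 was below all controls. Gpr17 rose by 0.67 ± 0.18 in Rnaseh2b/Atm against Rnaseh2b (adjusted p = 0.00549), where 4 members were called and 49.5% of genes were called. It was not called against control or Atm (0.10 ± 0.18). Rnaseh2b/Atm replicates 2 and 4, lowest in Sox10, Gpr17 and Pdgfra within their group, also had the lowest sums of 16 genes of mature oligodendrocytes, 3478 and 4877 CPM against 7353 to 10234 CPM in the other 3 and 9402 to 10580 CPM in controls.

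Olig1 ran from 4.69 to 6.51 log2 CPM in Rnaseh2b/Atm, 5.19 to 6.25 in Rnaseh2b, 5.03 to 6.16 in libraries labelled Atm and 5.22 to 6.27 in controls. Olig2, its close relative, ran from 3.53 to 4.46 in Rnaseh2b/Atm, 3.51 to 4.50 in Rnaseh2b, 3.72 to 4.05 in Atm and 3.51 to 4.46 in controls. Neither was called in any P28 comparison, and in each group the lowest library of both genes was the same one. In Rnaseh2b against control, 0 of 7 members were called, 0 had an unadjusted p under 0.05 and 0 were called on recovered reads, where 5.21% of genes were called. The changes ran from −0.35 ± 0.18 for Gpr17 (adjusted p = 0.238) to 0.09 ± 0.08 for Pdgfra. In the libraries labelled Atm against control, 0 were called either way, where 1.86% of genes were called. Only Cspg4 had an unadjusted p under 0.05 there, at −0.32 ± 0.13 (adjusted p = 0.221), and 3.73% of genes had no overlap in that comparison.

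The balance of GC-rich and GC-poor genes differed between P28 libraries and moved with several of the 7 genes. It was taken as the mean deviation of the tenth of genes richest in GC less that of the tenth poorest. Its median was −0.0432 log2 in Rnaseh2b/Atm, 0.00256 in Rnaseh2b, −0.0143 in libraries labelled Atm and 0.355 in controls. The lowest libraries were Rnaseh2b/Atm replicate 2 (−0.618), Rnaseh2b replicate 1 (−0.420), Atm replicate 4 (−0.645) and control replicate 2 (−0.245). Among tested genes with a known GC content (88.4%), Sox10 lay at percentile 98.0, Olig1 at 97.2, Cspg4 at 93.7, Olig2 at 91.9, Nkx2-2 at 80.3, Gpr17 at 68.2 and Pdgfra at 40.4. Over the 20 libraries, as deviations from group means, the correlation with this balance was 0.920 for Olig1, 0.850 for Olig2, 0.807 for Nkx2-2, 0.686 for Cspg4, 0.633 for Sox10, 0.261 for Gpr17 and −0.125 for Pdgfra.

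**Figure D3:**
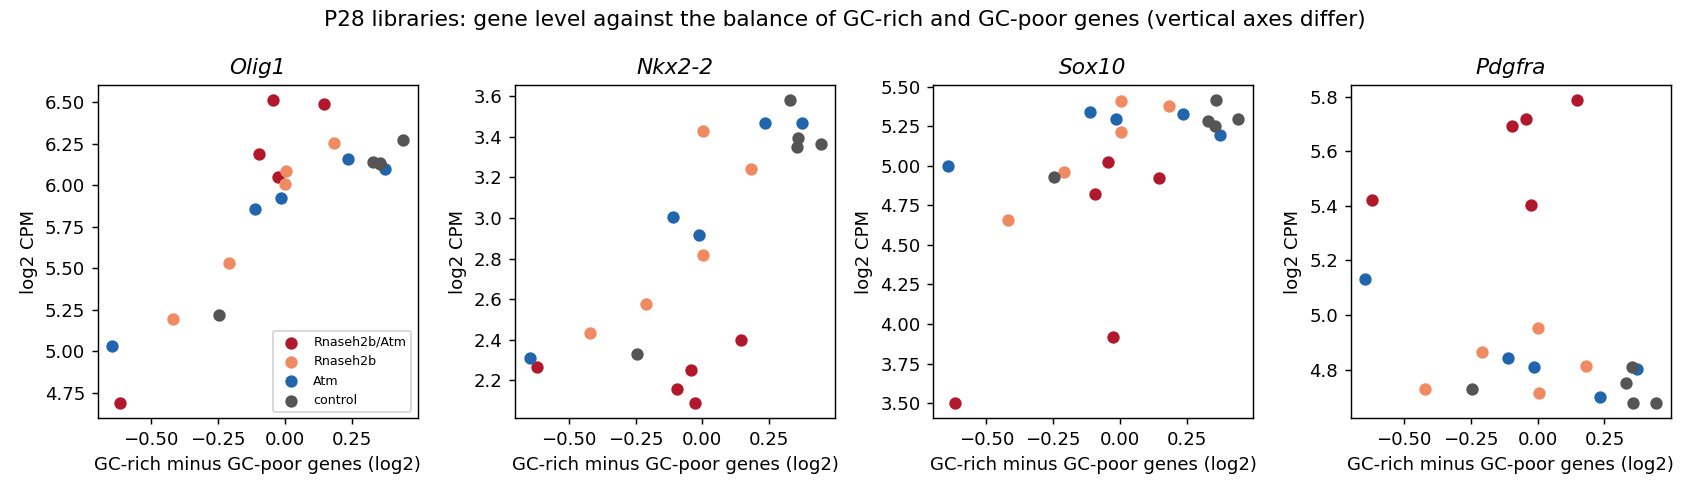
Level (log2 CPM) of 4 of the genes against the GC balance (log2) of each P28 library, coloured by genotype. Olig1 and Nkx2-2 follow the balance (correlations of deviations from group means 0.920 and 0.807), and Pdgfra does not (−0.125).

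With the GC balance as a covariate, added after the data were seen, the Rnaseh2b/Atm against control changes of Pdgfra (0.85), Sox10 (−0.49, adjusted p = 0.0383) and Nkx2-2 (−0.56, adjusted p = 0.00545) remained called, the falls of Sox10 and Nkx2-2 being smaller by more than 1.5 times. Cspg4 (0.42, adjusted p = 0.00208), Olig1 (0.61, adjusted p = 7.45e-04) and Olig2 (0.36, adjusted p = 0.0164) were then called too. Without the 4 libraries lowest in GC balance, the changes were 0.92 for Pdgfra, 0.37 for Cspg4 (adjusted p = 4.33e-04), 0.14 for Olig1, −0.02 for Olig2, −0.64 for Sox10, 0.35 for Gpr17 and −1.20 for Nkx2-2. In libraries labelled Atm against control, Cspg4 (−0.27, adjusted p = 0.0483) and Olig2 (−0.43, adjusted p = 0.0236) were called without those 4.

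Other genes of the lineage split in the same P28 comparison of Rnaseh2b/Atm with control. As 63.6% of all genes were called there, rises and falls together, the list counts stand beside that share. Of 14 further progenitor genes, 6 rose and 5 fell (median 0.15, against −0.02 over all genes). Among them Sox6 (0.76 ± 0.10) and Cacng4 (0.40 ± 0.06) rose, while Tnr, which encodes the matrix protein tenascin-R (−1.13 ± 0.13), and the transcription factor gene Myt1 (−1.43 ± 0.16) fell. Of 9 genes of committed and newly formed oligodendrocytes, 3 rose and 4 fell (median −0.10), with Enpp6 lower by 1.29 on the log2 scale (−1.29 ± 0.19) and Tcf7l2 higher by 2.05 ± 0.55. Of 16 genes of mature oligodendrocytes, 15 fell and 0 rose (median −0.74), among them the fatty acid hydroxylase gene Fa2h (−1.07 ± 0.25) and Mbp, which encodes myelin basic protein (−0.83 ± 0.23). These were 12 falls and 1 rise without the 4 GC-lowest libraries. Of 9 ligands that act on progenitors, 5 rose and 0 fell (median 0.79). Those of smallest adjusted p were Igf1 (1.29 ± 0.11), Shh (1.17 ± 0.10), Pdgfc (1.27 ± 0.13), which encodes a ligand of the Pdgfra receptor, and the Notch ligand gene Jag1 (0.79 ± 0.09). Pdgfa, the main ligand of that receptor and named after its value was seen, was not called (0.32, adjusted p = 0.0797).

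Pdgfra is also expressed by meningeal fibroblasts, Cspg4 by pericytes and Sox10 by Schwann cells, so lists of those cells stand beside the results. The share of all genes called was again 63.6%, in either direction. All 8 fibroblast genes rose in P28 Rnaseh2b/Atm against control (median 1.35), Col3a1 by 1.82 ± 0.09 and Dcn by 1.42 ± 0.09, and the list summed to 358 to 426 CPM in Rnaseh2b/Atm, 159 to 184 in Rnaseh2b, 155 to 206 in libraries labelled Atm and 120 to 222 in controls. Of 8 pericyte genes 5 rose and 1 fell (median 0.43), with sums of 326 to 359, 280 to 294, 256 to 300 and 255 to 282 CPM in the same groups. The 4 Schwann cell genes measured summed to 11.1 to 25.9 CPM in Rnaseh2b/Atm and 5.65 to 26.7 CPM in controls. All 8 microglial genes rose (median 0.76), and 5 of 8 astrocyte genes rose and 2 fell (median 0.39). The part of these cells in the changes of Pdgfra, Cspg4 and Sox10 was not tested. Of 7 granule cell progenitor genes tested 1 rose and 2 fell (median −0.25), and of 4 tested proliferation genes and 7 choroid plexus genes 0 were called, by limma.

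Genes of the neighbouring midbrain also moved with genotype. Leaving out Barhl2, which granule neurons express, a choice made after its values were seen, 4 midbrain genes summed to 11.9 to 27.4 CPM in P28 Rnaseh2b/Atm, 0.268 to 9.44 in Rnaseh2b, 0.0696 to 2.33 in libraries labelled Atm and 0.127 to 4.67 in controls. With Barhl2, which fell (−2.03 ± 0.11), the whole list ran the other way, at 22.9 to 37.4 CPM in Rnaseh2b/Atm, 35.5 to 47.1 in Rnaseh2b, 33.5 to 50.1 in libraries labelled Atm and 41.9 to 51.8 in controls. Tcf7l2, which thalamic and midbrain neurons also express, had 47.9 to 78.6 CPM in Rnaseh2b/Atm and 5.27 to 27.8 CPM in controls. With the mean of these midbrain genes as a covariate, Pdgfra (0.86), Sox10 (−0.90) and Nkx2-2 (−1.14) remained called against control, while Cspg4 against Atm (0.42, adjusted p = 0.101) and its interaction (0.38, adjusted p = 0.243) were lost.

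At 9 weeks, in Rnaseh2b mutants, the pair of Olig genes and Cspg4 were higher than in controls. Olig2 rose by 0.54 ± 0.13 on the log2 scale (1.45-fold, adjusted p = 0.00913), Cspg4 by 0.48 ± 0.12 (1.4-fold, adjusted p = 0.0132) and Olig1 by 0.44 ± 0.11 (1.36-fold, adjusted p = 0.0107). That is 3 of 7 members called and 4 with an unadjusted p under 0.05, where 20.2% of 15078 genes were called. Pdgfra (0.17 ± 0.08, adjusted p = 0.138), Sox10 (0.24 ± 0.13, adjusted p = 0.188), Nkx2-2 (0.21 ± 0.12) and Gpr17 (0.02 ± 0.12) were not called.

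**Figure D4:**
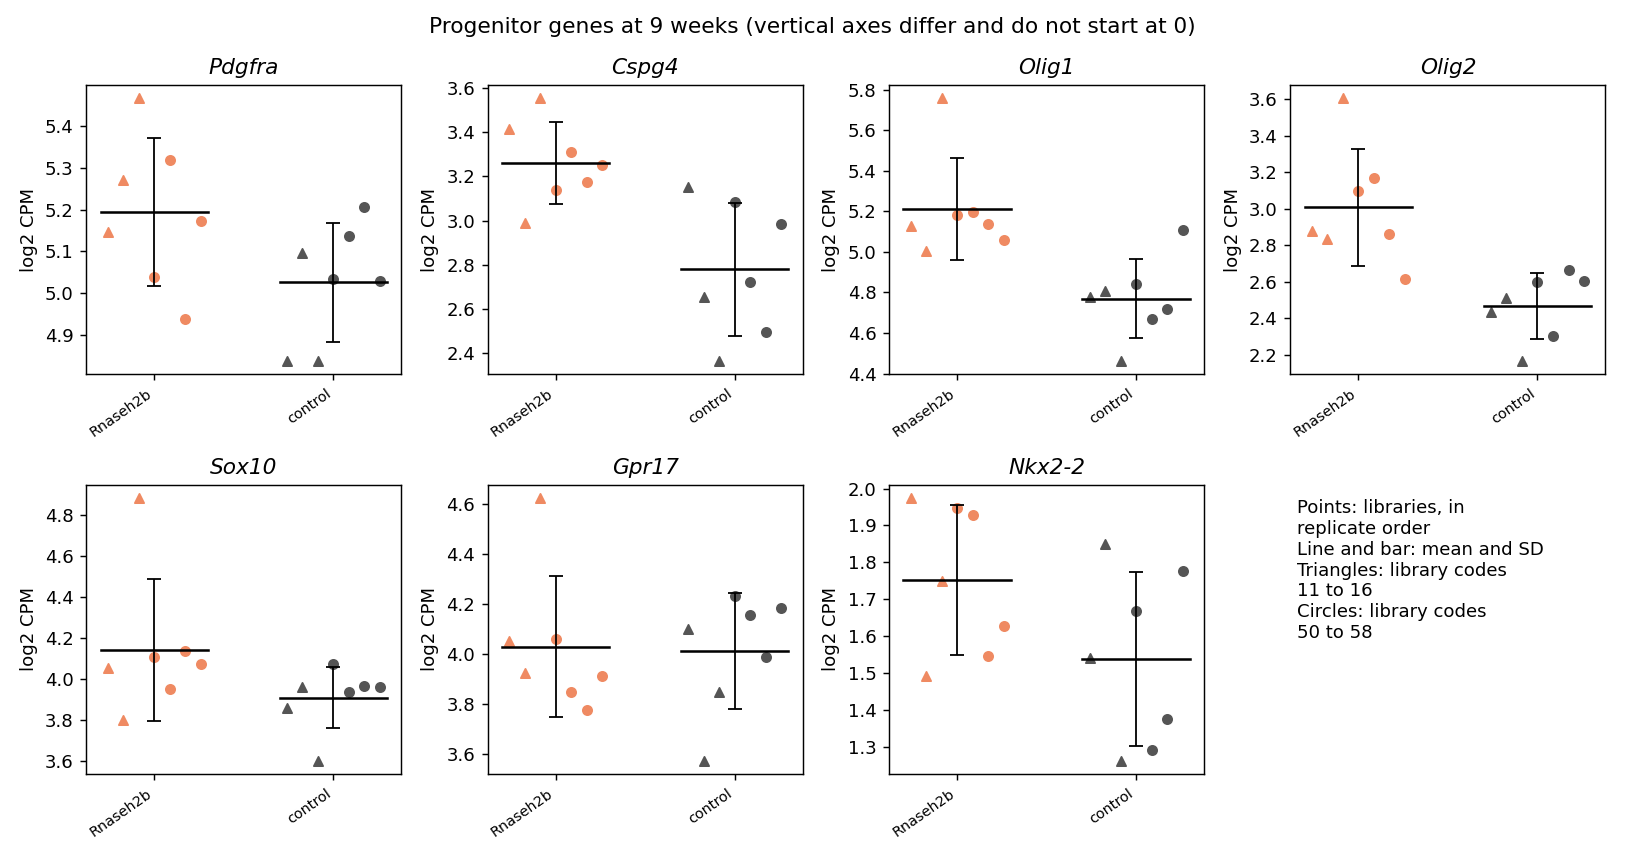
Level (log2 CPM) of the 7 genes in 7 Rnaseh2b and 7 control libraries at 9 weeks, with means and SD and with triangles and circles for the sets of library codes. Rnaseh2b replicate 3 is the highest library for Olig1 (5.76), Olig2 (3.61), Sox10 (4.89) and Gpr17 (4.63).

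Cspg4 had a lowest, median and highest value of 2.99, 3.25 and 3.55 log2 CPM in Rnaseh2b libraries, against 2.37, 2.72 and 3.15 in controls. Olig1 had 5.0, 5.14 and 5.76 in Rnaseh2b, against 4.46, 4.78 and 5.11 in controls. Olig2 had 2.61, 2.88 and 3.61 in Rnaseh2b, against 2.17, 2.51 and 2.66 in controls. The groups overlapped at their edges for all 3 genes, and no call depended on a single library. Pdgfra had 4.94, 5.17 and 5.47 log2 CPM in Rnaseh2b, against 4.84, 5.03 and 5.21 in controls, and Sox10 had 3.8, 4.07 and 4.89, against 3.60, 3.96 and 4.07. Gpr17 had 3.78, 3.92 and 4.63 in Rnaseh2b, against 3.57, 4.10 and 4.23 in controls, and Nkx2-2 had 1.49, 1.75 and 1.97, against 1.26, 1.54 and 1.85.

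The authors had equalised the means of both sets of library codes in the deposited 9-week values, and each set holds both genotypes. Within codes 11 to 16, with 3 libraries a group, the changes were 0.59 for Cspg4 (adjusted p = 0.106), 0.61 for Olig1 (0.0718) and 0.74 for Olig2 (0.0611). Within codes 50 to 58, with 4 a group, they were 0.40 (0.173), 0.31 (0.155) and 0.39 (0.205). None was called within a set, and all were positive in both. Gpr17 had opposite signs in the sets, 0.36 and −0.24, neither called, and Pdgfra had 0.37 and 0.02. With the set as a term in the fit, Cspg4, Olig1 and Olig2 remained called. That term could not move the changes, because the set means were already equal and each set held equal numbers of both genotypes. The GC balance had a median of 0.0441 log2 in Rnaseh2b libraries and −0.141 in controls, with overlapping ranges. Its correlation, as deviations from group means, was 0.802 with Cspg4, 0.393 with Olig2 and 0.364 with Olig1. With the GC balance as a covariate, Cspg4, Olig1 and Olig2 remained called.

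Around these genes, 4 of 13 further progenitor genes tested at 9 weeks rose and 1 fell (median 0.15, against 0.00 over all genes), Sox6 by 0.26 ± 0.06 and Lhfpl3 by 0.33 ± 0.09, with Myt1 lower (−0.34 ± 0.08). Of 9 genes of newly formed oligodendrocytes 2 rose, Tcf7l2 (0.50 ± 0.08) and Bcas1 (0.31 ± 0.10), and of 16 genes of mature oligodendrocytes 8 rose and 0 fell (median 0.28), among them Mobp (0.41 ± 0.11) and Cnp (0.29 ± 0.06). Of the 9 ligands 3 rose, Igf1 (0.48 ± 0.07), Shh (0.39 ± 0.12) and Jag1 (0.35 ± 0.08). Within codes 50 to 58 alone, 0 genes of these 4 lists were called, and within codes 11 to 16 the counts were 2, 1, 1 and 1. Fibroblast genes summed to 107 to 153 CPM in Rnaseh2b and 98.8 to 120 CPM in controls (3 of 8 rose), and pericyte genes to 209 to 244 CPM and 173 to 207 CPM (3 of 8 rose). Microglial genes summed to 149 to 205 CPM in Rnaseh2b and 121 to 139 CPM in controls, with no overlap (7 of 8 rose), and astrocyte genes to 2874 to 3623 CPM and 2723 to 3079 CPM (4 of 8 rose). The part of those cells in the rises of Cspg4, Olig1 and Olig2 was not tested. The 3 midbrain genes measured besides Barhl2 summed to 5.59 to 10.4 CPM in Rnaseh2b and 2.53 to 5.23 CPM in controls, with no overlap. With Barhl2 the list overlapped, at 17.5 to 26 CPM in Rnaseh2b and 17.4 to 22.8 CPM in controls. Of all single genes, 4.34% did not overlap in this 9-week comparison, and 20.2% were called. With the mean of the 3 genes as a covariate the changes stayed at 0.48 for Cspg4, 0.41 for Olig1 and 0.53 for Olig2, but none was called (adjusted p = 0.274, 0.287 and 0.258).

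At P5, before most myelination, no comparison with control called any of the 7 genes. In each double mutant 1 of the genes was lower than in a single mutant. Gpr17 fell by 1.10 ± 0.33 on the log2 scale in Rnaseh2b/Atm against Atm (to 0.467-fold, adjusted p = 0.0467), and Sox10 fell by 1.24 ± 0.30 in Rnaseh2b/p53 against Rnaseh2b (to 0.424-fold, adjusted p = 0.0355). Each was 1 of 7 members called, where 9.5% and 3.02% of 15421 genes were called. Both calls were made on recovered reads too, and both were lost when most single libraries were left out.

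**Figure D5:**
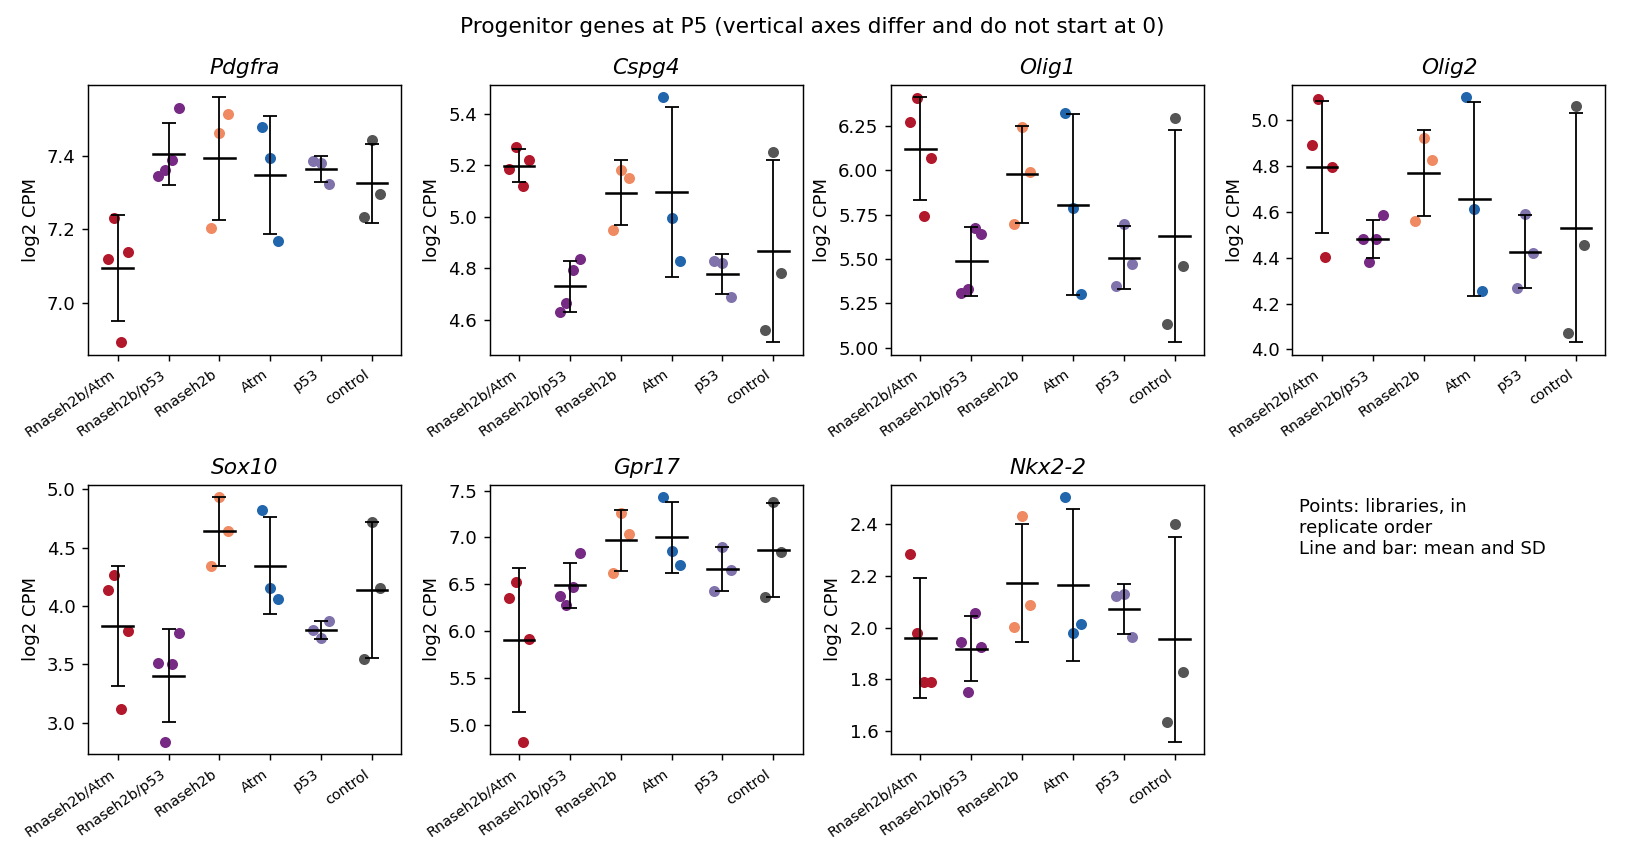
Level (log2 CPM) of the 7 genes in the libraries of the 6 P5 genotypes, with group means and SD. Rnaseh2b/Atm replicate 3 is lowest for Gpr17 (4.81), and control replicate 2 and Atm replicate 1 are the highest of their groups in each gene.

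Gpr17 had 6.36, 6.52, 4.81 and 5.91 log2 CPM in Rnaseh2b/Atm and 6.38, 6.27, 6.46 and 6.83 in Rnaseh2b/p53. It had 6.61, 7.26 and 7.04 in Rnaseh2b, 7.43, 6.86 and 6.71 in libraries labelled Atm, 6.43 to 6.90 in p53 and 6.37, 7.38 and 6.84 in controls. All 4 Rnaseh2b/Atm libraries were below all Rnaseh2b and all Atm libraries, groups that did not overlap being seen for 30.1% and 16.8% of genes. The call against Atm was lost without Rnaseh2b/Atm replicate 3 (−0.73, adjusted p = 0.106) or 4 (−1.10, 0.0688), and without Atm replicate 1 (−0.88, 0.124), 2 (−1.17, 0.0944) or 3 (−1.24, 0.0546). The change was −1.07 ± 0.33 against Rnaseh2b (adjusted p = 0.107) and −0.96 ± 0.33 against control (adjusted p = 0.0755).

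Sox10 had 4.13, 4.26, 3.12 and 3.79 log2 CPM in Rnaseh2b/Atm and 3.51, 2.83, 3.50 and 3.77 in Rnaseh2b/p53. It had 4.35, 4.93 and 4.64 in Rnaseh2b, 4.82, 4.16 and 4.06 in libraries labelled Atm, 3.79, 3.72 and 3.87 in p53 and 3.55, 4.72 and 4.15 in controls. Both double mutant groups were below all Rnaseh2b libraries and overlapped the controls. Against Rnaseh2b, 30.1% of all genes did not overlap in Rnaseh2b/Atm and 22.9% in Rnaseh2b/p53. Of 7 libraries left out in turn, only leaving out Rnaseh2b replicate 1 kept the call of Rnaseh2b/p53 against Rnaseh2b. Without Rnaseh2b replicate 2 (−1.09, adjusted p = 0.129) or 3 (−1.24, 0.162), or without Rnaseh2b/p53 replicate 1 (−1.27, 0.0618), 2 (−1.05, 0.105), 3 (−1.27, 0.0697) or 4 (−1.36, 0.0562), it was lost.

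Pdgfra at P5 had 7.12, 7.23, 6.90 and 7.14 log2 CPM in Rnaseh2b/Atm, 7.35 to 7.53 in Rnaseh2b/p53, 7.20 to 7.51 in Rnaseh2b, 7.17 to 7.48 in libraries labelled Atm, 7.32 to 7.39 in p53 and 7.23, 7.44 and 7.30 in controls. The Rnaseh2b/Atm libraries were all below the lowest control, where 18.3% of all genes did not overlap, and the change of −0.23 ± 0.09 was not called (adjusted p = 0.120). Cspg4 had 5.12 to 5.27 in Rnaseh2b/Atm, 4.63 to 4.83 in Rnaseh2b/p53, 4.95 to 5.18 in Rnaseh2b, 4.83 to 5.46 in Atm, 4.69 to 4.83 in p53 and 4.56 to 5.25 in controls. Its change in Rnaseh2b/Atm against control was 0.33 ± 0.14 (adjusted p = 0.144), and those of Olig1 and Olig2 were 0.49 ± 0.26 and 0.27 ± 0.21. Nkx2-2 lay between 1.64 and 2.50 in all libraries and was not called.

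In P5 Rnaseh2b/Atm against control 0 members were called, 3 had an unadjusted p under 0.05 (Pdgfra, Cspg4 and Gpr17) and 0 were called on recovered reads, where 9.86% of genes were called. Rnaseh2b/p53 against control also called 0, with Sox10 alone under an unadjusted p of 0.05 (−0.74 ± 0.30), where 0.428% of genes were called. In Rnaseh2b, Atm and p53 against control, and in Rnaseh2b/p53 against p53, 0 were called and 0 had an unadjusted p under 0.05, by either fit, where 0.681%, 0%, 0.175% and 0.188% of genes were called. Rnaseh2b/Atm against Rnaseh2b called 0, with Pdgfra, Sox10 and Gpr17 under an unadjusted p of 0.05, where 2.04% of genes were called. The interactions of Rnaseh2b with Atm and with p53 called 0 members, with 3 and 0 under an unadjusted p of 0.05, where 0% and 0.00648% of genes were called.

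Control replicate 2 and Atm replicate 1, the libraries that stood apart, were the highest of their groups in all 7 genes. Leaving them out lowers the mean of each gene in these groups, so changes against control or Atm rise of themselves. Fewer than 3 libraries then remain in either group, and the share of all genes called in that fit is not given. The controls that remain, replicates 1 and 3, had GC balances of −0.223 and −0.0891 log2, against 0.0131 to 0.120 in Rnaseh2b/Atm. That fit held no GC term. Without both, Cspg4 (0.53, adjusted p = 4.31e-04), Olig1 (0.82, 0.00444) and Olig2 (0.53, 0.0196) were called higher in Rnaseh2b/Atm against control, and Cspg4 (0.42, 0.0428) in Rnaseh2b against control. Against Atm, Cspg4 (0.29, 0.0259) and Olig1 (0.58, 0.0456) were then called higher in Rnaseh2b/Atm and Gpr17 was not called (−0.88, 0.0782). Against Rnaseh2b, Pdgfra (−0.30, 0.0222), Sox10 (−0.81, 0.0321) and Gpr17 (−1.07, 0.0223) were called lower. In Rnaseh2b/p53 against Rnaseh2b, Cspg4 (−0.36, 0.0130) was called lower beside Sox10. Neither comparison with Rnaseh2b lost a library, so these changes equal those of the main fit. Only the spread, which all groups of the age share, and the adjustment over all genes differ.

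Tissue at the borders of the cerebellum also varied at P5. A list of 10 Hox genes of the medulla and pons summed to 3.42, 0.393, 8.54 and 13.3 CPM in Rnaseh2b/p53 and 30.0, 68.2 and 11 CPM in Rnaseh2b, and 6 midbrain genes, Barhl2 included, to 37.4 to 47.2 CPM and 10.5 to 39 CPM. In Rnaseh2b/Atm the Hox sums were 31.9, 42.7, 0.775 and 2.43 CPM, and replicate 3, lowest in Gpr17 and Sox10, was the lowest. With the hindbrain list as a covariate Sox10 in Rnaseh2b/p53 against Rnaseh2b was −0.86 (adjusted p = 0.0755), and with the midbrain list −0.89 (adjusted p = 0.595). Gpr17 in Rnaseh2b/Atm against control was called with either, at −1.13 (adjusted p = 0.0132) and −1.21 (adjusted p = 0.0325).

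In P5 Rnaseh2b/Atm against Atm, where 9.5% of all genes were called, 0 of 14 further progenitor genes were called. Bcas1, a gene of newly formed oligodendrocytes, fell (−0.94 ± 0.28), and 4 of 9 ligands rose, among them Igf1 (1.03 ± 0.10) and Shh (0.87 ± 0.16). The 4 fibroblast genes and 4 pericyte genes that rose there, and the fibroblast sums of 707 to 954 CPM in Rnaseh2b/Atm and 481 to 547 CPM in Atm, stand beside a Pdgfra that was not called (−0.25 ± 0.09). In Rnaseh2b/p53 against Rnaseh2b, 3.02% of all genes were called. Sox10 fell there beside 1 of 15 tested genes of mature oligodendrocytes, Cldn11 (−1.40 ± 0.32), with a list median of −1.74. Schwann cell genes, of which 0 of 3 tested were called and 2 had an unadjusted p under 0.05 by limma, summed to 28 to 34.5 CPM in Rnaseh2b/p53 and 37.9 to 151 CPM in Rnaseh2b. Fibroblast genes, 3 of 8 of which fell, summed to 437 to 495 CPM and 628 to 1689 CPM in the same groups. Neither list overlapped between the groups, where 22.9% of all single genes did not overlap. The part of these cells in the fall of Sox10 was not tested.

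Within groups the genes varied together to different degrees. As the mean over 3 ages of the correlation of deviations from group means, over 54 libraries, Olig1 and Olig2 were closest (0.910), followed by Olig1 and Sox10 (0.853) and Sox10 and Gpr17 (0.806), and Pdgfra and Nkx2-2 were least alike (0.110). These points share library, depth and GC balance, and no test was made. Among 14146 genes tested at all ages, those most like Sox10 were Mag (0.922), Cnp (0.895) and Pllp (0.876). Mag and Cnp are on the list of genes of mature oligodendrocytes used above. Those most like Gpr17 were Neu4 (0.844), Mog (0.842) and Pllp (0.841), and those most like Pdgfra were Asah2 (0.809), Sc4mol (0.752) and Mme (0.751). Cspg4 was most like Caskin2 (0.881), Bcan (0.856), which encodes the proteoglycan brevican, and Fbxo31 (0.854). After its relative, Olig1 was most like Hcn2 and Tmem151a (0.891 each), Olig2 like Slc25a1 (0.893) and Nefm (0.890), and Nkx2-2 like Trnp1 (0.797), Pcsk1n (0.796) and Chchd10 (0.793).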

How the data were processed

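RNA-seq of whole cerebellum was used as deposited. Trim Galore, STAR, BWA, HTSeq, limma and the build mm9 are listed in the submitters' processing notes, without versions or order, and whether counting used strand is not given in the sources used here. The authors deposited log2 CPM and FPKM values per gene. The deposited 9-week FPKM were used as a score, since 30976 values are negative and the authors had shifted them. Negative values were set to 0 before the log2 transform. In the 9-week log2 CPM the means of both sets of library codes were equal to within 3.1e-09.

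The filter was at least 1 CPM in as many libraries as the smallest group (3 at P5, 5 at P28, 7 at 9 weeks). All groups of an age entered 1 fit in limma 3.58.1 (R 4.3.3), with a mean-variance trend and Benjamini-Hochberg adjustment over all genes tested, called below 0.05. The steps were tested on simulated data. At P5, rows that name no gene (3 of them, 19.7% to 31.8% of reads) were dropped. Whole reads came back from the log2 CPM at P5 (99.9844% of values or more, tolerance 0.01) and P28 (100%), and limma's voom on them called 1500 genes at P5 and 10704 at P28 for Rnaseh2b/Atm against control. Replicate numbers did not pair libraries: 21 of 46 pairs correlated over 0.1 at P5, 12 of 30 at P28 and 0 of 7 at 9 weeks.

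The 7 genes and all lists were chosen with earlier results of these data known. Genes named besides the 7 were the check genes, up to 4 called genes of a list with the smallest adjusted p, and the 3 most like each of the 7. Promoters came from RefSeq, build GRCm38.p6, by symbol. Alternatives covered filters, scaling, FPKM, recovered reads, left-out libraries, covariates and the replicate block.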

Additional observations from a re-analysis of the deposited data

Results flagged for a closer look

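Single libraries stood apart from their groups by Dixon's test in 10 of 56 groups of values. The flags fell on the few libraries named below and the genes vary together. The 56 are therefore not independent, and their count was not set against chance. At P28, Rnaseh2b/Atm replicate 2 was low for Cspg4 (3.75 log2 CPM), Olig1 (4.69) and Olig2 (3.53), Atm replicate 4 was low for Olig1 (5.03), and control replicate 2 was low for Olig1 (5.22), Olig2 (3.51) and Nkx2-2 (2.33). These 3 libraries were the lowest of their groups in GC balance. At 9 weeks, Rnaseh2b replicate 3 was high for Olig1 (5.76 log2 CPM), Sox10 (4.89) and Gpr17 (4.63), and its myelin list sum was the highest of its group, at 6573 CPM.

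Between genotypes, the effect of Rnaseh2b loss at P28 differed with Atm genotype for Pdgfra, by 0.66 on the log2 scale, and for Cspg4, by 0.50, by the interaction term in limma. Pdgfra in Rnaseh2b/Atm less control was −0.23 at P5, with all 4 libraries below the controls, and 0.87 at P28, with all 5 above. Groups did not overlap for 18.3% of all genes in that comparison at P5 and for 45.6% at P28. That difference between ages was not tested, and the ages differ in library type.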

How the results depend on the processing

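At P28 the calls of Pdgfra, Sox10 and Nkx2-2 in Rnaseh2b/Atm against control held in 21 of 21 alternatives, as did the Pdgfra interaction in 31 of 31. Against Rnaseh2b, Sox10 held in 17 and Nkx2-2 in 16 of 21. At 9 weeks Cspg4 and Olig2 held in 22 of 25 and Olig1 in 21 of 25. Among the 25 was the term for the set of library codes, which could not move the changes. At P5 Gpr17 (Rnaseh2b/Atm against Atm) held in 10 of 19 and Sox10 (Rnaseh2b/p53 against Rnaseh2b) in 9 of 19. No call reversed. Olig2 in P28 Rnaseh2b/Atm against control, not called at −0.01 in the main fit, was called at 0.36 with the GC covariate. Of 2653 alternative values, 151 belonged to uncalled changes and had the other sign, and were not called there either. The cause was not tested for any lost or gained call.

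Members called, beside the main counts of 0 (P5 Rnaseh2b, Rnaseh2b/Atm and Rnaseh2b/p53 against control, Rnaseh2b/Atm against Rnaseh2b), 1 (P5 Rnaseh2b/Atm against Atm, Rnaseh2b/p53 against Rnaseh2b), 3 (P28 Rnaseh2b/Atm against control, 9 weeks) and 2 (P28 interaction), were as follows. Without P5 control 2 and Atm 1 together they were 1 for Rnaseh2b and 3 for Rnaseh2b/Atm against control, 2 against Atm, 3 against Rnaseh2b, and 2 for Rnaseh2b/p53 against Rnaseh2b. With array weights at P5 they were 5 for Rnaseh2b/Atm and 1 for Rnaseh2b/p53 against control, 3 for Rnaseh2b/Atm against Atm, 1 against Rnaseh2b and 2 for Rnaseh2b/p53 against Rnaseh2b; at P28, 2 for Rnaseh2b, 1 for Atm, 5 for Rnaseh2b/Atm against control and 5 for the interaction. The hindbrain covariate gave 1 for P5 Rnaseh2b/Atm against control and 0 for Rnaseh2b/p53 against Rnaseh2b, and the midbrain covariate 1, 0, and 2 against Atm. No filter, quantile scaling and a fit of only the groups compared each gave 0 for P5 Rnaseh2b/Atm against Atm. The replicate block gave 0 for P5 Rnaseh2b/p53 against Rnaseh2b. The GC covariate gave 0 there, 6 for P28 Rnaseh2b/Atm against control and 4 for the interaction. Without the 4 GC-lowest P28 libraries there were 2 for Atm against control and 4 for the interaction. Codes 11 to 16 and 50 to 58 gave 0 each at 9 weeks, and the midbrain covariate without Barhl2 gave 0 there and 1 for the P28 interaction. Shares of all genes called are not given for these alternatives.

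Leaving out 1 library gave 0 to 2 (P5 Rnaseh2b/Atm against control), 0 to 1 (P5 Rnaseh2b/Atm against Atm and Rnaseh2b/p53 against Rnaseh2b), 3 to 4, 4 to 5 and 2 to 4 (P28 Rnaseh2b/Atm against control, Atm and Rnaseh2b), 1 to 2 (interaction) and 3 (9 weeks). The block of replicate numbers, which do not pair libraries, also lost Olig1 at 9 weeks (adjusted p = 0.0510). The GC, left-out GC-lowest and Barhl2-free midbrain alternatives were added after the data were seen. Depth at 9 weeks is unknown, so what it limits there cannot be given.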
